A study of Rattus norvegicus with 4 samples.

Results

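C1q-low macrophages were barcodes with macrophage transcripts and almost no transcripts of C1qa, C1qb and C1qc, which encode the chains of complement component C1q. They were chosen from single-cell libraries of rat skin taken on day 4 of a wound healing model, by measured counts alone. A barcode needed at least 1000 UMIs (unique molecular identifiers, 1 per captured transcript), at least 250 genes and at most 20% of UMIs in mitochondrial genes. Krt5 and Krt14 had to stay under 0.5% of its UMIs, Col1a1, Col3a1 and Dcn under 1%, and G0s2, Il1r2, S100a8 and S100a9 under 0.5%, to keep out keratinocytes, fibroblasts and neutrophils. Cd3e, Cd3d, Cd3g, Flt3, Ccr7, Xcr1 and Clec9a had to be at 0 UMIs, to keep out T cells and dendritic cells. The C1q genes had to sum to under 3 UMIs and Csf1r, Adgre1, Mrc1 and Cd68 to at least 3. The rule found 1042 of 32801 kept barcodes, which was 3.18% of them and 91.3% of the barcodes that met every criterion but the C1q limit. Of the members, 1002 had 0 C1q UMIs, 28 had 1 and 12 had 2. The other macrophages, called C1q-expressing here, were 99 barcodes.

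The study compared wounds injected with migrasomes with wounds that were not injected, with 10x Genomics single-cell RNA libraries. Migrasomes are vesicles that migrating cells leave on their retraction fibres. Each group had 2 libraries, called uninjected 1 and 2 and injected 1 and 2, and all came from skin of day 4. The injected group got purified migrasomes and the uninjected group got no injection of any kind, so effects of the needle and of the vesicles cannot be told apart. The sources used here do not give strain, age, genotype, dose or the cells that made the migrasomes. Whether replicates were separate animals is not stated, and p-values thus cover only the spread among libraries, which may be technical.

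Monocytes leave the blood, enter a wound and become macrophages there, which take up debris and dying cells, release chemokines that draw further leukocytes and later secrete matrix and growth factors. C1q is made by many tissue macrophages, and recently arrived cells are known to carry little of it. Macrophages that digest engulfed material make lysosomal proteases, iron storage proteins and the membrane glycoprotein Gpnmb.

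Uninjected 1 and 2 gave 53 and 279 members, and injected 1 and 2 gave 392 and 318. Their median depth was 5124 and 6104 UMIs in uninjected and 5887.5 and 6527 UMIs in injected wounds, and their summed UMIs came to 382919, 1926901, 2532982 and 2293413. No member barcode was shared between libraries. Between 0.179% and 0.323% of the kept barcodes of the smaller library of a pair were shared.

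Uninjected 1 stood apart from the other libraries. Its members' log CPM correlated with those of the other libraries at 0.798 to 0.815 across genes, against 0.939 to 0.947 among the other three, where genes are not independent replicates. Ribosomal protein genes took 11.9% of its members' UMIs, against 4.94% in uninjected 2 and 3.71% to 4.37% after injection. Markers of another cell type were carried by 30 of its 53 members (56.6%), against 15.1% in uninjected 2 and 12.2% to 18.2% after injection. These were mostly Cd207 or Epcam, markers of Langerhans cells (17 members), and keratinocyte genes (18 members). Free RNA, as found in barcodes of at most 100 UMIs, could account for up to 19.5% of its members' UMIs, against 2.16%, 5.56% and 2.32% in uninjected 2, injected 1 and injected 2. Values without this library are given beside the lists and genes that it moved most.

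**Figure D1:**
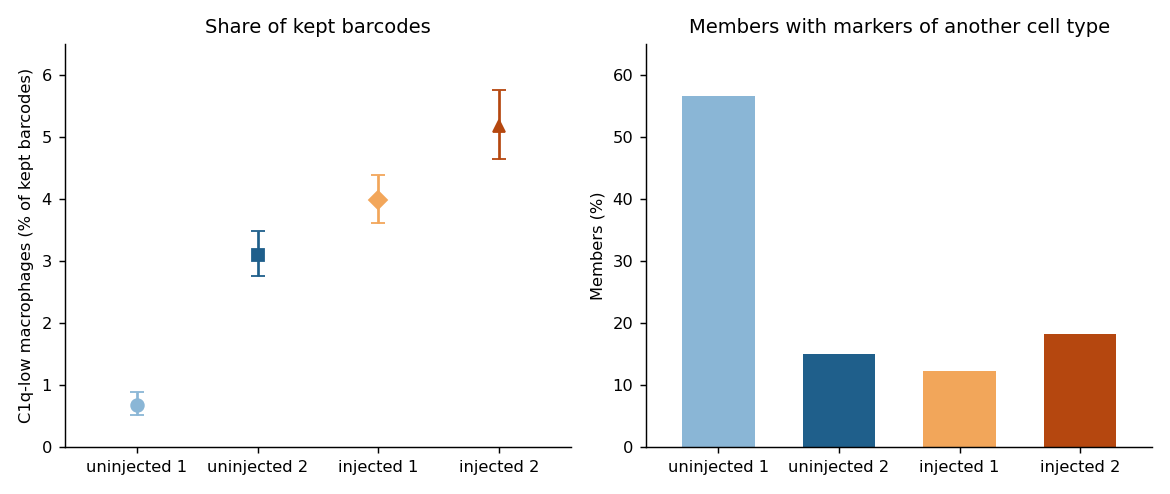
Left: members as a percentage of kept barcodes in each library, with 95% Wilson intervals, which cover counting error only. Right: percentage of members with markers of Langerhans cells, keratinocytes, fibroblasts, mast, vascular, T, B or muscle cells; uninjected 1 has the lowest share of members (0.678%) and the highest share with such markers (56.6%).

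The members carried the macrophage markers. Cd68 (ENSRNOG00000037563), a lysosomal glycoprotein of macrophages, had a UMI in 79.2% and 97.5% of uninjected and 98.2% and 96.9% of injected members. Lyz2, lysozyme, had one in 60.4% and 91.0% of uninjected and 84.4% and 88.1% of injected members. Csf1r, the receptor for the growth factor of macrophages, had one in 52.8%, 58.1%, 41.1% and 47.2% in the same order. Adgre1, the F4/80 antigen, was the least often detected at 9.43%, 19.4%, 23.2% and 40.3%. Csf1r, Cd68 and Adgre1 belonged to the rule, so their presence is no finding, and Lyz2 was lowest in uninjected 1.

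Shares at a fixed depth were set against keratin-rich barcodes, those with at least 0.5% of UMIs in Krt5 and Krt14, which should lack these genes. Each barcode was thinned to 1000 UMIs for this, from medians of 14632.5 to 19407 UMIs in keratin-rich barcodes. Lyz2 then had a UMI in 54.7% and 82.4% of uninjected and 71.2% and 70.1% of injected members, against at most 2.42% of keratin-rich barcodes. Tyrobp, an adaptor of myeloid receptors that the rule did not use, had one in 62.3%, 60.6%, 58.7% and 58.8% of members, against at most 1.24%. Both genes were far more frequent in members than in keratin-rich barcodes in all 4 libraries.

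The label's origin from monocytes rested on less. Of 15 genes listed for classical monocytes, Vcan, a matrix proteoglycan made by monocytes, stood at 285 and 1412 CPM (UMIs scaled to a common library total, with TMM factors) in the uninjected and 1528 and 753 CPM in the injected libraries. Plac8, another monocyte gene, stood at 79.3, 141, 140 and 107 CPM. Without TMM scaling the list summed to 9417, 8133, 6264 and 4581 CPM in members. In all kept barcodes it summed to 11863, 3698, 3463 and 3146 CPM, so in uninjected 1 members lay below them. Most of the members' sum in uninjected 1 came from S100a6 and S100a4, at 2253 and 861 UMIs. Vcan and Plac8 had 115 and 32 UMIs there. Ly6c had at most 1 UMI in any library and Ifitm6 had 0 in all, and Ccr2 was not analysed here. Resident macrophage genes were divided, with Cd163 at 2.48 to 14.6 CPM and Lyve1 at 11.0 to 52.1 CPM, but Pf4 at 422 to 1079 CPM and Folr2 at 39.7 to 216 CPM. Most of the summed level of the resident list came from Apoe, which keratin-rich barcodes carried more often than members in every library. These values describe macrophages low in C1q and Cd163, and do not show where the cells came from.

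**Figure D2:**
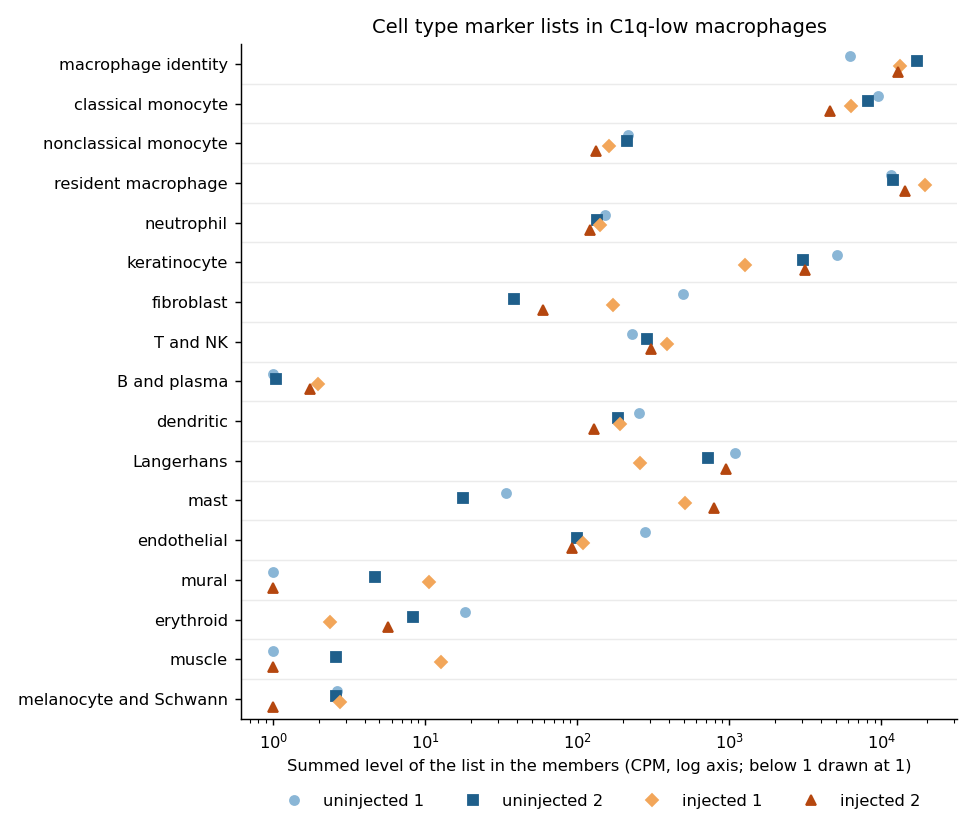
Summed CPM of marker lists in the members, 1 point per library on a log axis. The macrophage identity and classical monocyte lists lie at 4581 CPM or above in all libraries. The resident macrophage list, at 11598, 11922, 19292 and 14241 CPM, lies above the classical monocyte list in each. That order rests on Apoe, whose 4011, 20526, 44984 and 30328 UMIs make up most of the resident list. The keratinocyte list reaches 5074 CPM in uninjected 1. The mast list is at 513 and 788 CPM in the injected and 33.9 and 17.6 CPM in the uninjected libraries.

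Values just inside and just outside the limits of the rule are given without a test. The 12 members with 2 C1q UMIs had 838 CPM of Cd68 and 6147 CPM of Lyz2 pooled over libraries, and the 6 barcodes just outside with 3 C1q UMIs had 681 and 4853 CPM. At the other limit, the 177 members with 3 UMIs of the macrophage genes had 2458 CPM of Lyz2 and 670 CPM of Tyrobp. The 278 barcodes with 2 such UMIs, just outside, had 1824 and 487 CPM. Lyz2 lay the other way in uninjected 1. Its 18 members with 3 such UMIs held 34 Lyz2 and 103 Tyrobp UMIs among 189468. The 38 barcodes just outside held 158 and 145 among 371935. Those 18 members thus supplied 189468 of the 382919 UMIs summed over the members of uninjected 1.

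Ferritin and neutrophil-attracting chemokines took the most UMIs of the members. Fth1 (ENSRNOG00000022619), the heavy chain of the iron store ferritin, led with 19570 and 46347 CPM in the uninjected and 92195 and 83033 CPM in the injected libraries. Ftl1, its light chain, followed at 15603, 20849, 26914 and 34065 CPM. Cxcl1 and Cxcl2, ligands of the neutrophil receptor Cxcr2, ranged from 11752 to 24221 and from 8370 to 18892 CPM. Both ferritin genes were highest in the injected libraries and lowest in uninjected 1. Apoe, a lipid carrier, Spp1, the secreted matrix protein osteopontin, and Cxcl3 were also among the 10. Apoe was not particular to the members. After thinning it had a UMI in 49.1%, 45.5%, 52.3% and 50.6% of members, against 85.2%, 91.1%, 96.4% and 94.4% of keratin-rich barcodes. Cxcl1, Cxcl2 and Cxcl3 are close paralogs and ferritin has processed copies, so reads could be split between copies in the authors' counting.

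Against all other kept barcodes, Spp1 (ENSRNOG00000043451) set the members apart most, as a description with no test since the rule chose the cells. In CPM of summed UMIs without TMM scaling, Spp1 stood at 5842 and 22001 in uninjected and 9874 and 9791 in injected members, against 30.7, 151, 92.9 and 138 in the other barcodes. Pf4, a platelet-type chemokine also made by macrophages, stood at 653, 663, 998 and 403 CPM against 6.46 to 15.3 CPM. Gdf15, a stress-induced secreted factor, stood at 1010 to 1194 CPM against 30.1 to 53.2 CPM. Genes of the phagocyte oxidase (Cybb and Cyba), the lysosome (Ctsz, Smpdl3a) and Gpnmb were also among the 15 with the largest smallest ratio over libraries.

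The members were then set beside the 7, 21, 42 and 29 C1q-expressing macrophages of the same libraries, again as a description. Apart from the C1q genes that chose the cells, Cd163, the scavenger receptor for hemoglobin, was lower in members in all 4 libraries, at 2.61, 5.19, 8.29 and 14.0 CPM against 1737, 131, 225 and 758 CPM. Ms4a7, a membrane protein of mature macrophages, was lower at 79.8 to 160 CPM against 511 to 1262 CPM. Fcgrt, the neonatal Fc receptor, was lower at 19.3 to 31.3 CPM against 203 to 588 CPM. Fcgr3a, an activating Fc receptor, was also among the 15 genes chosen for being lower. The summed UMIs of the C1q-expressing macrophages came to only 29356, 198958, 364170 and 265299. How the UMIs of these genes fell over single C1q-expressing barcodes was not examined.

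Other genes were higher in members than in C1q-expressing macrophages. Fth1 stood at 20613, 47284, 85307 and 79269 CPM in members against 9061, 25664, 27015 and 25059 CPM. Gpnmb stood at 883, 2158, 2933 and 3925 CPM against 341, 1196, 717 and 1787 CPM. Hsd11b1, which regenerates active glucocorticoid, stood at 23.5 to 73.4 CPM against 0 to 7.54 CPM, a level of few UMIs in the smaller class. Median depth was 4484, 7812, 7646.5 and 8805 UMIs in C1q-expressing macrophages.

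Members were split by 5 chosen genes to describe how they varied among themselves. The first split was by MHC class II, the proteins that present antigen to T cells. Members with at least 10 of 1000 UMIs from Cd74 (ENSRNOG00000018735), the chaperone of class II proteins, numbered 12 of 53 and 26 of 279 in the uninjected and 21 of 392 and 37 of 318 in the injected libraries. That was 22.6%, 9.32%, 5.36% and 11.6% of members, highest in uninjected 1. The class II genes RT1-Da, RT1-Ba, RT1-Bb and RT1-Db1 went with Cd74. Their promoters are shown because these genes moved together within the members. Each line gives the 130 bases before the RefSeq start in build GRCr8, on the gene's strand, with any match to CTGATTGG, the letters of the class II Y box, in capitals:
RT1-Da: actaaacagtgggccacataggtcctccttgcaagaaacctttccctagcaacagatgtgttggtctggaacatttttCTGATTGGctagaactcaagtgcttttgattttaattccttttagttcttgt
RT1-Ba: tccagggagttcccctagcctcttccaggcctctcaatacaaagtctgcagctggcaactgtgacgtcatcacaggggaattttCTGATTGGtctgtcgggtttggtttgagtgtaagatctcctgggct
RT1-Bb: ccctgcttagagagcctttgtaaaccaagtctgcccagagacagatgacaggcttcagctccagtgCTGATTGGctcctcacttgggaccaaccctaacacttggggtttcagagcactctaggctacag
RT1-Db1: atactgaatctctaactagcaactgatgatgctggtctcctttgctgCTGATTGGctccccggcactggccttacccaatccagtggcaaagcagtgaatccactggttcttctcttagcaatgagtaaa

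All 4 stretches held the letters on the gene's strand. They began 52, 46, 64 and 83 bases before the start in RT1-Da, RT1-Ba, RT1-Bb and RT1-Db1. The stretches lie on chromosome 20, at 4515285 to 4515414 (plus strand) for RT1-Da and 4576927 to 4577056 (plus strand) for RT1-Ba. Those of RT1-Bb and RT1-Db1 lie at 4604119 to 4604248 and 4560163 to 4560292, both on the minus strand. On both strands together, 2.25% of 33469 RefSeq promoters held the letters in the same 130 bases, and the stretch before Cd74 did not. A match is a description of the letters, not of a factor bound there.

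In members rich in Cd74, RT1-Da stood at 22423 CPM in uninjected 2 and at 24905 and 21649 CPM in the injected libraries, in thinned cells. In the other members it stood at 542, 507 and 345 CPM. Uninjected 1 had too few such members (12, under a minimum of 20) for this comparison. Cd207, the langerin of Langerhans cells, stood at 3769, 1429 and 3649 CPM in the Cd74-rich members against 19.8, 27.0 and 49.8 CPM. Clec10a, a lectin of dendritic cells and macrophages, stood at 808, 952 and 703 CPM against 19.8 to 35.0 CPM. The leading genes of this subset thus included a Langerhans marker, and the rule on Flt3, Ccr7, Xcr1 and Clec9a had not removed it.

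The same subset lacked the genes of the main body of members. Apoe stood at 385, 190 and 1216 CPM in it against 10735, 17256 and 11089 CPM in the other members. Fn1, the matrix protein fibronectin, stood at 76.9, 47.6 and 27.0 CPM against 3395, 1253 and 815 CPM. Ctsl, a lysosomal protease, stood at 615 to 857 CPM against 6340 to 11221 CPM. Nos2 had 0 thinned UMIs in the subset in the 3 libraries compared.

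Members were split by Gpnmb (ENSRNOG00000008816) as well. After thinning it had a UMI in 39.6% and 63.8% of uninjected and 74.2% and 76.4% of injected members, against 3.41% to 6.36% of keratin-rich barcodes. Ctsd, a lysosomal aspartic protease, stood at 1571, 1236, 1801 and 2362 CPM in members with Gpnmb against 188, 446, 663 and 440 CPM in those without. Spp1 stood at 20286, 30096, 11735 and 11687 CPM against 3031, 11624, 4545 and 3200 CPM. Both were higher with Gpnmb in all 4 libraries, and so were Fth1, Npc2, Ctsb and Ctsl. Class II genes were lower with Gpnmb, as RT1-Da at 0 to 523 CPM against 5822 to 10280 CPM. Cd207 stood at 0 to 45.3 CPM with Gpnmb against 1906, 1000, 396 and 1840 CPM without. Gpnmb itself stood at 192, 143 and 135 CPM in the Cd74-rich members of uninjected 2, injected 1 and injected 2. In the other members of these libraries it stood at 2510, 3372 and 4851 CPM. The sides thus also differed in Cd74-rich members, and the split was not tested without them.

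**Figure D3:**
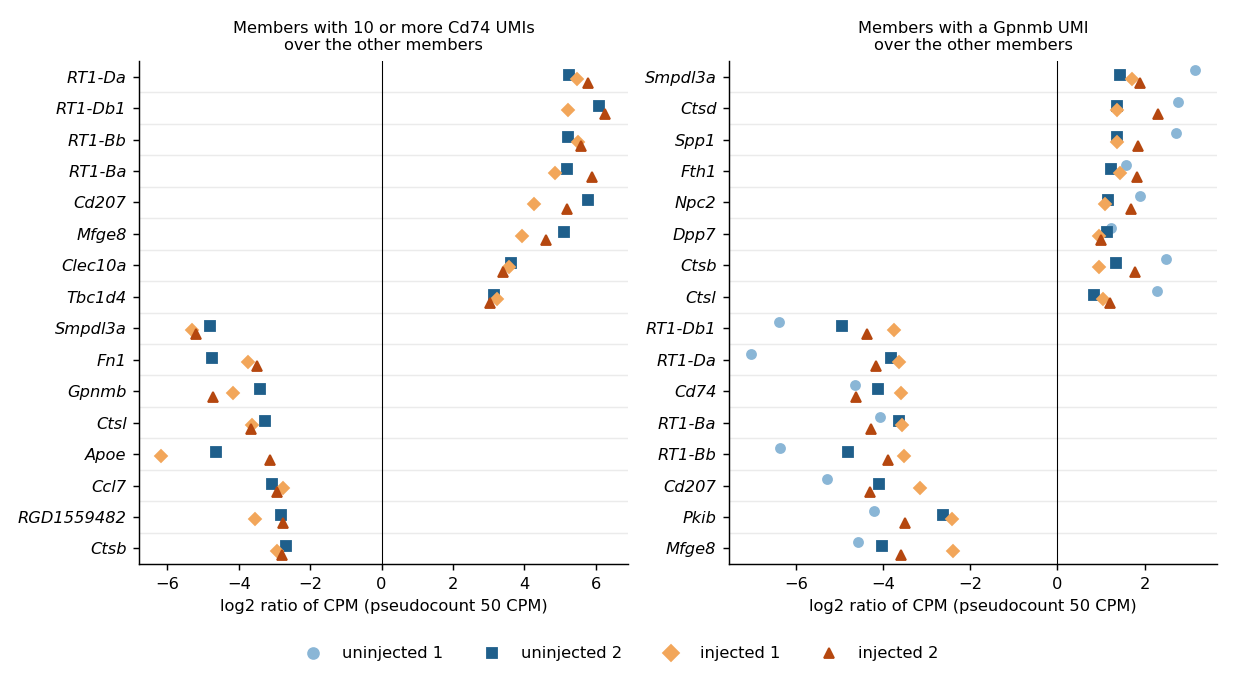
log2 ratio of CPM between members with and without 10 or more Cd74 UMIs (left) and with and without a Gpnmb UMI (right), thinned to 1000 UMIs, 1 point per library for the 8 highest and 8 lowest genes. Class II genes and Cd207 lie far right with Cd74 and far left with Gpnmb; uninjected 1 is absent from the left panel for want of cells.

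Further splits used inflammatory genes. Nos2, the inducible nitric oxide synthase, had a UMI in 11.3% and 16.8% of uninjected and 26.8% and 18.9% of injected members after thinning, against at most 0.629% of keratin-rich barcodes. Ptgs2, the inducible cyclooxygenase, stood at 1766, 2876 and 3000 CPM in members with Nos2 in uninjected 2, injected 1 and injected 2, against 828, 1251 and 1252 CPM in those without. Slc7a2, a transporter of arginine, the substrate of Nos2, stood at 362, 686 and 500 CPM against 155, 199 and 143 CPM. Il6, an inflammatory cytokine, stood at 277, 324 and 150 CPM against 51.7, 115 and 62.0 CPM. These genes were higher with Nos2 in each of the 3 libraries that had enough such members. Class II genes were lower with Nos2, as RT1-Da at 426, 352 and 167 CPM against 3017, 2348 and 3442 CPM. Cd207 stood at 0 CPM with Nos2 against 444, 139 and 578 CPM without. The Cd74-rich members, with 0 thinned Nos2 UMIs in these libraries, all fell on the side without Nos2.

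Members with Nos2 were not a set apart from members with Arg1, the arginase that uses the same substrate. Arg1 had a UMI in 16.7%, 36.2%, 42.9% and 23.3% of members with Nos2, and in 8.51%, 15.1%, 31.4% and 14.0% of those without. Keratin-rich barcodes carried Arg1 as often or more often than members in uninjected 1 (24.5% against 9.43%) and uninjected 2 (24.9% against 18.6%). In injected 1 members had it more often (34.4% against 18.5%), and in injected 2 about as often (15.7% against 15.4%). Il1b, the cytokine interleukin 1 beta, went with Nlrp3, the sensor of the inflammasome that releases it. It stood at 3068, 7000 and 5408 CPM in members with Nlrp3 in uninjected 2, injected 1 and injected 2, against 681, 1944 and 1506 CPM without. Il1a and Ckap2l also went with Il1b. Ckap2l lies next to Il1a in GRCr8, so its UMIs cannot be assigned with certainty.

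Members made up a larger share of kept barcodes in the injected libraries, with no test able to pass. The share was 0.678% in uninjected 1 (95% Wilson interval 0.519% to 0.886%) and 3.10% in uninjected 2 (2.76% to 3.48%). It was 3.98% in injected 1 (3.61% to 4.38%) and 5.18% in injected 2 (4.65% to 5.76%). The groups did not overlap, but uninjected 2 lay nearer to injected 1 than to uninjected 1. The means were 1.89% ± 1.72 and 4.58% ± 0.846 (SD, n = 2 each), a difference of 2.69 percentage points by the exact two-sided permutation test (p = 0.33, the smallest this design allows). Without uninjected 1 the difference in the share of C1q-low macrophages among kept barcodes was 1.47 points.

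The rule reads summed UMIs, so a deeper barcode meets the limit of 3 more easily. Median depth of all kept barcodes was 4498.5 and 6173 UMIs in the uninjected and 5033.5 and 8750 UMIs in the injected libraries. With every barcode thinned to 1000 UMIs before the rule, the shares were 0.192%, 0.478%, 0.690% and 0.977%, in the same order. Of all macrophages, members made up 88.3% and 93.0% in the uninjected and 90.3% and 91.6% in the injected libraries, a difference of 0.316 points (exact permutation p = 1.0). The share of members among macrophages thus overlapped between the groups.

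No single gene passed the test of injected against uninjected members. UMIs were summed per library, and edgeR's quasi-likelihood test called 0 of 9281 genes (0.0%) at a Benjamini-Hochberg adjusted p under 0.05. At an unadjusted p under 0.05 there were 417 genes (4.49%), 156 of them higher (1.68%) and 261 lower (2.81%). DESeq2 called 10. The smallest adjusted p by edgeR was 0.206, so none of the differences below passed. Among genes changed in C1q-low macrophages by edgeR, leaving out uninjected 2 gave 620, with uninjected 1 as the lone control, and leaving out uninjected 1 gave 3.

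The smallest p-values of higher genes belonged to proteases of mast cells, which the rule does not exclude. Tpsab1, mast cell tryptase, had 0 and 0 UMIs in uninjected and 372 and 311 UMIs in injected members (edgeR adjusted p = 0.206). Mcpt1l1, a gene of the mast cell protease family, had 0 and 1 against 597 and 1285 UMIs, and Cma1, chymase, had 0 and 0 against 314 and 881 UMIs. Nearly all of these came from a few barcodes. In injected 1, 3 members held 1644 of the 1654 UMIs of Tpsab1, Mcpt1l1, Cpa3 and Cma1, and in injected 2 a single member held 2992 of 2998. The other gene with a small p, Mbd1, which binds methylated DNA, stood at 29.8, 41.2, 145 and 130 CPM. It was spread over 151 and 133 injected members, and its log2 difference was 1.91 (SE 0.32, unadjusted p = 0.00114).

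Among lower genes with the smallest p, Ier5l (ENSRNOG00000024846), an immediate early response gene, stood at 86.8 and 117 CPM in uninjected and 21.8 and 15.5 CPM in injected members. Its log2 difference was −2.46 (SE 0.35, edgeR adjusted p = 0.799), and 102 of 279 members of uninjected 2 carried it against 37 of 392 and 27 of 318 injected members. Ybx3, a cold shock domain protein that binds nucleic acids, stood at 275, 260, 78.1 and 73.5 CPM, with a log2 difference of −1.82. Both were lower in each injected than in each uninjected library. Cst6 was lower too, but 1 member held 92.6% of its UMIs in uninjected 2. Acan, the cartilage proteoglycan, had 55 UMIs in 11 members of uninjected 2 and 6 UMIs in each injected library.

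**Figure D4:**
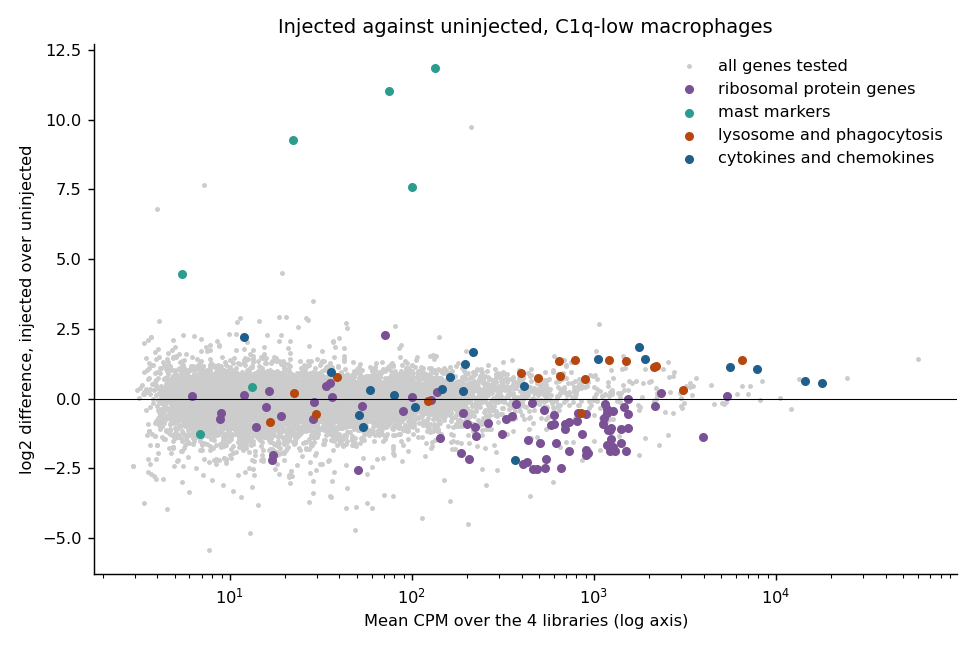
log2 difference (injected over uninjected) against mean CPM on a log axis, 1 point per gene tested, with 4 gene groups in colour. Mast markers lie highest, most lysosome and chemokine genes lie above 0, and most ribosomal protein genes lie below it; no gene passed at an adjusted p under 0.05.

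Genes of the lysosome and of phagocytosis were mostly higher in injected members, without passing the test. Of 18 tested of 20 listed, 14 were higher and 4 lower, 0 passed, and the median log2 difference was 0.79, against −0.03 over all 9281 genes, of which 48.1% lay above 0. For 12 of the 18 (66.7%) both injected libraries were above both uninjected ones, against 20.1% of all genes, and for 2 both were below, against 20.8%. Without uninjected 1 the list's median was 0.62 and that of all genes 0.03. The lists were drawn up with earlier results of these libraries known, so these counts are a description.

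Lgmn (ENSRNOG00000007089), the asparagine endopeptidase of lysosomes, stood at 315 and 555 CPM in uninjected and 909 and 1373 CPM in injected members. Ctsd stood at 382 and 963 CPM against 1661 and 1845 CPM, and Ctsb, a cysteine protease, at 1004 and 1682 CPM against 2962 and 3081 CPM. Grn, progranulin, stood at 211 and 504 CPM against 791 and 1058 CPM. In all 4 genes the injected libraries were above the uninjected ones and uninjected 1 was lowest. The log2 differences were 1.39 (SE 0.46), 1.38 (SE 0.54), 1.17 (SE 0.45) and 1.36 (SE 0.52), with unadjusted p from 0.0256 to 0.0449. Without uninjected 1 they were 1.05, 0.88, 0.86 and 0.89. Cd9, a tetraspanin, and the lipoprotein receptor Scarb1 lay the other way, with Cd9 at 1061, 937, 443 and 936 CPM.

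Cytokines and chemokines were also mostly higher. Of 21 tested of 23 listed, 17 were higher and 4 lower, and 0 passed. Both injected libraries were above both uninjected ones for 10 (47.6%), against 20.1% of all genes. The median log2 difference was 0.62. It was 0.61 without uninjected 1. Il1b (ENSRNOG00000004649) stood at 355 and 1177 CPM in uninjected and 3335 and 2239 CPM in injected members, a log2 difference of 1.86 (SE 0.66, unadjusted p = 0.0326) and 1.26 without uninjected 1. It had a UMI in 28.3%, 34.1%, 52.6% and 48.7% of thinned members, against 3.23% to 5.71% of keratin-rich barcodes. Up to 71.8% of the Il1b UMIs of the most affected library could be free RNA.

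Ccl2 and Ccl7 are ligands that draw monocytes. Ccl2 stood at 4093 and 2933 CPM in uninjected and 8013 and 7248 CPM in injected members, with a log2 difference of 1.12 (SE 0.46). A single member held 57.4% of the Ccl2 UMIs of uninjected 1. After thinning, Ccl2 had a UMI in 56.6%, 53.0%, 70.7% and 77.0% of members, against 53.9%, 43.6%, 60.4% and 47.5% of keratin-rich barcodes. Its share in members of uninjected 1 was thus close to that in keratin-rich barcodes. Ccl7 (ENSRNOG00000000239) stood at 315 and 815 CPM against 1444 and 1631 CPM, with a log2 difference of 1.44 (SE 0.54), and 0.93 without uninjected 1. In both genes the groups did not overlap. Ccl3 and Ccl4, inflammatory chemokines of macrophages, stood at 233, 1857, 3476 and 2093 CPM and at 29.8, 171, 329 and 337 CPM. Up to 85.8% of the Ccl3 UMIs of the most affected library could be free RNA. Cxcl1 and Cxcl2 differed by 0.57 (SE 0.52) and 0.62 (SE 0.53) on the log2 scale, with no overlap between the groups. Without uninjected 1 they differed by 0.35 and 0.30. In uninjected 1 a single member held 45.0% of the Cxcl1 UMIs. After thinning, Cxcl1 had a UMI in 58.5%, 82.8%, 90.3% and 88.1% of members, against 59.5%, 46.2%, 57.5% and 56.1% of keratin-rich barcodes.

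Other cytokines overlapped between the groups. Il6 stood at 149, 108, 235 and 89.5 CPM, Osm at 57.0, 179, 244 and 171 CPM and Csf3 at 278, 70.2, 312 and 99.1 CPM. Cxcl10, an interferon-induced chemokine, stood at 1145 CPM in uninjected 1 and 64.1, 167 and 93.6 CPM elsewhere, and 1 member held 440 of its 462 UMIs in uninjected 1. Its log2 difference was −2.20 with that library and 1.04 without. Tnf stood at 2.28 to 4.69 CPM and was too low to test, and Il12b had 0 UMIs.

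**Figure D5:**
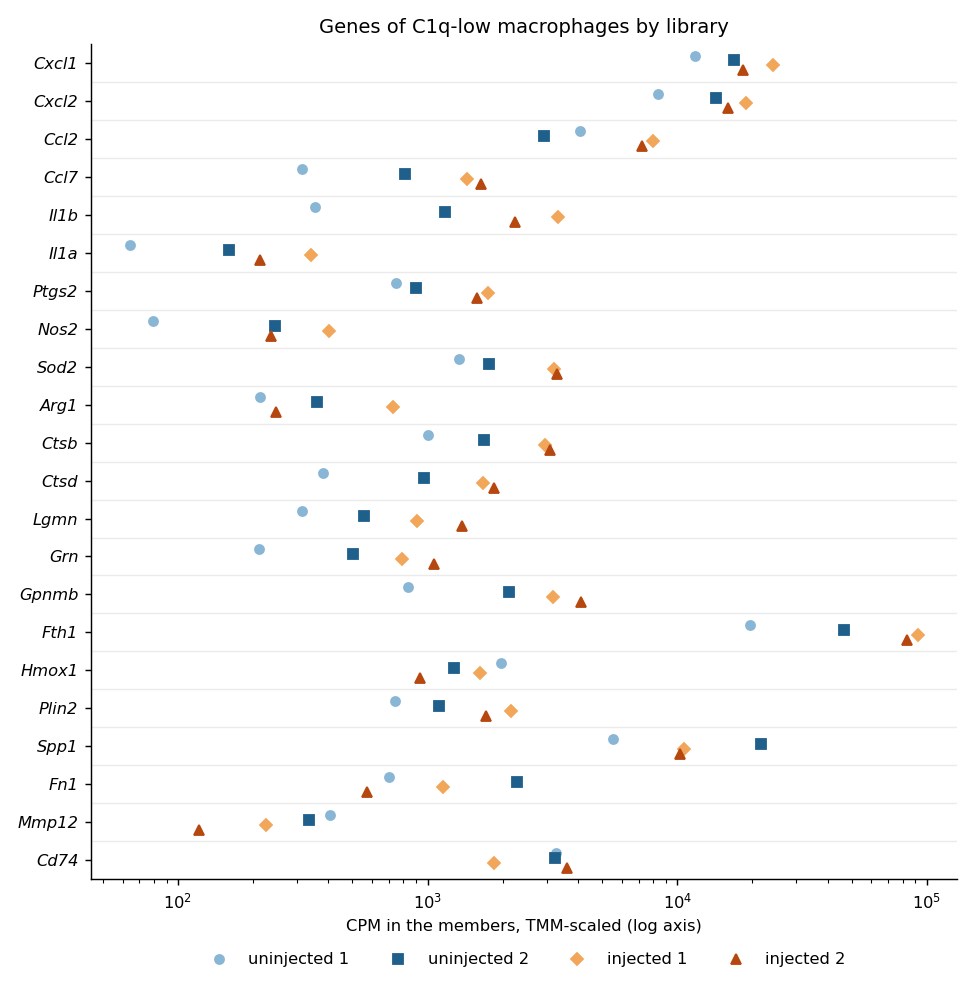
CPM (TMM-scaled, log axis) of 22 genes in the members, 1 point per library. For Cxcl1, Cxcl2, Ccl2, Ccl7, Il1b, Il1a, Ptgs2, Sod2, the cathepsins, Lgmn, Grn, Gpnmb, Fth1 and Plin2 both injected libraries lie above both uninjected ones; for Mmp12 they lie below; Nos2, Arg1, Spp1, Fn1, Hmox1 and Cd74 overlap. No gene passed the test.

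Inflammatory enzymes and regulators lay the same way, with 14 of 15 tested higher, 1 lower, 0 passed and a median log2 difference of 0.43. Both injected libraries were above both uninjected ones for 6 (40.0%), against 20.1% of all genes. Ptgs2 (ENSRNOG00000002525) stood at 744 and 902 CPM against 1746 and 1573 CPM, and Sod2, the mitochondrial superoxide dismutase, at 1336 and 1758 CPM against 3206 and 3287 CPM. The log2 differences were 1.01 (SE 0.38, unadjusted p = 0.0385) and 1.07 (SE 0.41, unadjusted p = 0.0418). Without members that carried markers of other cell types that of Ptgs2 was 0.54. Ptgs2 had a UMI in 20.8%, 32.6%, 49.0% and 52.5% of thinned members, against 33.1%, 24.2%, 23.5% and 30.1% of keratin-rich barcodes. In uninjected 1 it was thus less frequent in members than in keratin-rich barcodes. Nos2 stood at 79.3, 246, 404 and 236 CPM, so the groups overlapped. Cebpb, a transcription factor of myeloid cells, was the gene that was lower, at 1941, 4468, 1382 and 3088 CPM.

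Iron and heme genes numbered 7 tested of 8 listed, of which 6 were higher, 1 lower and 0 passed, with a median log2 difference of 0.74. For 5 (71.4%) both injected libraries were above both uninjected ones, against 20.1% of all genes. The log2 difference of Fth1 was 1.41 (SE 0.68) and 0.93 without uninjected 1. Slc11a1, the phagosomal metal transporter, stood at 29.8, 88.0, 157 and 109 CPM. Hmox1, the heme-degrading oxygenase, was the lower one, at 1961, 1276, 1621 and 936 CPM, and overlapped. Slc40a1, the iron exporter, had 0 UMIs in the members of every library.

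Hypoxia and glycolysis genes numbered 21 tested of 22, with 16 higher, 5 lower, 0 passed and a median log2 difference of 0.64, which was 0.33 without uninjected 1. Both injected libraries were above for 10 (47.6%) and below for 2 (9.52%), against 20.1% and 20.8% of all genes. Ldha, lactate dehydrogenase, stood at 736, 1732, 3012 and 2149 CPM. Hk2, hexokinase, lay the other way at 228, 157, 147 and 123 CPM. Of lipid genes, Plin2, the coat protein of lipid droplets, stood at 741 and 1111 CPM against 2163 and 1710 CPM, a log2 difference of 1.06 (SE 0.42, unadjusted p = 0.0475). The 12 lipid genes had a median of 0.08, and 0.26 without uninjected 1, with 8 higher, 4 lower and 0 passed.

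Repair genes were divided. Of 22 tested, 10 were higher, 12 lower and 0 passed, with a median log2 difference of −0.12, and 0.19 without uninjected 1. Both injected libraries were above for 3 (13.6%) and below for 6 (27.3%), near the 20.1% and 20.8% of all genes. Gpnmb stood at 838 and 2115 CPM in uninjected and 3170 and 4112 CPM in injected members, a log2 difference of 1.30 (SE 0.57) with no overlap, and 0.80 without uninjected 1. Mmp12 (ENSRNOG00000030187), macrophage elastase, stood at 407 and 334 CPM against 226 and 121 CPM, a log2 difference of −1.09 (SE 0.42, unadjusted p = 0.0419). Areg, a ligand of the epidermal growth factor receptor, stood at 501 and 538 CPM against 296 and 325 CPM, though up to 59.6% of its UMIs in the most affected library could be free RNA. Spp1 (5546, 21566, 10671 and 10256 CPM) and Fn1 (702, 2288, 1150 and 574 CPM) were highest in uninjected 2 and lowest in uninjected 1 and in injected 2, respectively. Vegfa and Tgfb1 stood at 456, 709, 700 and 864 CPM and at 117, 213, 225 and 198 CPM, and overlapped.

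Macrophage identity genes had a median log2 difference of 0.44, with 14 of 20 tested higher, 6 lower and 0 passed. Without uninjected 1, the median was −0.02. Cd14, the co-receptor for bacterial lipopolysaccharide, stood at 149, 811, 1726 and 1423 CPM, and Csf1r at 186, 140, 114 and 116 CPM. Classical monocyte genes had 7 of 11 tested higher, 4 lower and 0 passed, with a median of 0.19, and −0.23 without uninjected 1. Both medians turned sign without that library.

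Of 6 class II genes tested, 1 was higher, 5 were lower and 0 passed, with a median log2 difference of −0.23, and the groups overlapped for all 6. Of 22 interferon response genes tested, 10 were higher, 12 lower and 0 passed, with a median of −0.18, and 0.07 without uninjected 1. Within the interferon list, Bst2, the antiviral tetherin, stood at 91.7 and 41.2 CPM against 25.2 and 18.7 CPM, a log2 difference of −1.53 (SE 0.48, unadjusted p = 0.0198), and −0.89 without uninjected 1. Cd74 stood at 3280, 3229, 1843 and 3620 CPM, lowest in injected 1, which also had the smallest share of Cd74-rich members.

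Resident macrophage genes had 7 of 11 tested higher, 4 lower and a median of 0.18. Nonclassical monocyte genes had 3 of 6 higher and 3 lower, chemoattractant receptors and adhesion genes 8 of 11 higher and 3 lower, and genes of migrasome formation and cargo 6 of 10 higher and 4 lower, with 0 passed in each. Ccr1, a receptor of the Ccl3 family, stood at 24.8, 62.6, 132 and 87.2 CPM, a log2 difference of 1.23 (SE 0.48, unadjusted p = 0.0443). Tspan4, a tetraspanin of migrasomes, stood at 4.96, 22.4, 20.5 and 11.4 CPM. Without uninjected 1, the medians of the receptor and adhesion list and of the migrasome list went from 0.41 to 0.15 and from 0.09 to 0.32, and 1 of 6 nonclassical monocyte genes was higher. Of 15 proliferation genes, 7 were higher and 8 lower with a median of −0.01, but 12 were higher with a median of 0.73 without uninjected 1. Mki67, a marker of dividing cells, stood at 3.56 to 19.8 CPM. Genes induced by dissociation and heat had 5 of 17 higher and 12 lower with a median of −0.08, and Fos, an immediate early gene, stood at 412, 509, 405 and 512 CPM.

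Markers of other cell types and ribosomal protein genes also differed between libraries, with uninjected 1 often highest and most summed marker levels overlapping between the groups. Of 85 ribosomal protein genes tested, 74 were lower and 11 higher in injected members, with a median log2 difference of −0.91, which was −0.15 without uninjected 1. Keratinocyte markers were lower for 9 of 11 tested, with summed levels of 5074 and 3067 CPM in uninjected and 1274 and 3119 CPM in injected members, and Langerhans markers summed to 1089, 718, 260 and 947 CPM. Dendritic markers were lower for 7 of 8 tested, at 256, 184, 191 and 129 CPM, and fibroblast markers for 5 of 6, at 496, 38.4, 171 and 59.7 CPM. Without uninjected 1 all 6 fibroblast markers, 4 of 8 dendritic markers and 5 of 11 keratinocyte markers were higher, and the keratinocyte median went from −0.98 to −0.18. Mast markers were higher for 6 of 7 tested. Endothelial markers summed to 277, 99.1, 108 and 92.9 CPM, and T and NK markers to 230 to 390 CPM. The latter included Cd2 and Il7r, with 516 UMIs in 186 and 371 UMIs in 140 of the 392 members of injected 1. Neutrophil markers summed to 121 to 151 CPM, including Trem1, with 227 UMIs in 147 of those members. B cell, mural, muscle, erythroid and melanocyte markers summed to at most 18.3 CPM. Without the members that carried such markers, the medians were 0.66 for lysosome genes, 0.68 for cytokines, 0.52 for inflammatory enzymes, 0.75 for hypoxia genes and 0.45 for iron genes, and 0 genes passed edgeR's test, with 411 at an unadjusted p under 0.05. Without the Cd74-rich members they were 0.84, 0.51, 0.61, 0.67 and 0.81, and 0 genes passed. Both alternatives were chosen after seeing the data.

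Whether members and C1q-expressing macrophages responded differently was tested in 1 model, with the library as a block. edgeR's quasi-likelihood test called 1 of 5350 genes (0.0187%). Tiam2 (ENSRNOG00000016728), an exchange factor for the small GTPase Rac, had 7 and 98 UMIs in uninjected and 166 and 63 UMIs in injected members, and 14, 69, 9 and 1 UMIs in C1q-expressing macrophages. The difference of the responses was 5.04 on the log2 scale (SE 0.72, edgeR adjusted p = 0.0184). A single C1q-expressing barcode held all 14 UMIs of uninjected 1, and another held 63 of the 69 of uninjected 2. In members alone the log2 difference of Tiam2 was 0.44 (SE 0.62), with 52.4% and 54.0% of the UMIs of the injected libraries in 1 member each. At an unadjusted p under 0.05 there were 163 genes. The count of genes whose response differs from that of C1q-expressing macrophages was 38 when uninjected 1 was left out and 9 when uninjected 2 was. It was 3 and 2 on leaving out injected 1 or injected 2. Ctsk, Slc12a2 and Lpl were among the genes with the next smallest p and did not pass, with adjusted p of 0.511 to 0.864.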

How the data were processed

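Members and gene lists were chosen with earlier results of these data known. The deposited matrices hold raw UMI counts per gene and barcode for 23999 genes, made by the authors with Cell Ranger 7.2.0 per the file headers, while the submitters' processing notes name 5.0.1. The genome build is not given in the sources used here. Of the genes in the rule, Col1a2 was not analysed here. No doublet caller was run, and leaving out the 5% of members with most UMIs per library stands in its place.

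UMIs were summed per library over the members and tested with edgeR 4.0.16 (R 4.3.3, TMM, filterByExpr, quasi-likelihood, Benjamini-Hochberg adjusted p under 0.05, standard errors from the F statistic). No covariate was used. DESeq2 1.42.0 was an alternative. The fits were also run on simulated counts with known changes, and how many were recovered is not reported here. CPM in comparisons between groups is TMM-scaled. Library depth was 75823418 to 105605297 UMIs. Intervals cover counting error only. Splits of members used barcodes thinned to 1000 UMIs, genes of a mean of 100 CPM or more, a pseudocount of 50 CPM and at least 20 members per side. Comparisons with other barcodes used a pseudocount of 10 CPM. The upper bound on free RNA took all keratinocyte or all fibroblast transcripts of members as free, whichever gave less.

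Named genes were, by rule, the 5 with the smallest p per direction since none passed, a panel, the highest and most different of each of 30 lists, the 10 with most UMIs, 15 per comparison of cells, and 5 of the test of responses. Some genes that this rule names are not reported here. Further list genes, and genes of the splits, were named after their values were seen. Cd2 and Il7r, and Trem1, which many members carried, were left out when members with T and NK or neutrophil markers were counted.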

Additional observations from a re-analysis of the deposited data

Results flagged for a closer look

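Tiam2 differed between the responses of C1q-low and C1q-expressing macrophages by the test of that difference itself (5.04 on the log2 scale, edgeR quasi-likelihood test, adjusted p = 0.0184). The C1q-expressing classes held 7, 21, 42 and 29 barcodes, and 1 barcode per library held all 14 Tiam2 UMIs of uninjected 1 and 63 of the 69 of uninjected 2. Leaving out each library in turn gave differences of 4.56 to 6.08 and adjusted p of 6.53e-09 to 0.0391, but leaves 1 library in an arm and does not bear on the UMIs of those single barcodes. After thinning to 1000 UMIs per barcode Tiam2 was too low to be tested.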

How the results depend on the processing

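The count of genes changed in C1q-low macrophages, injected against uninjected, was 0 by edgeR. It was also 0 with RLE scaling, a C1q limit of 0 UMIs or of 0.1% of UMIs, 2000 or more UMIs, a mitochondrial limit of 10%, stricter limits on other cell types, without the 5% of members with most UMIs, and without ribosomal and mitochondrial genes. Both alternatives added after seeing the data gave 0 too. DESeq2 gave 10, of which 4 were mast cell proteases, no filter on low counts gave 117 (29 higher, 88 lower) and thinning to 1000 UMIs gave 1, Mcpt1l1. With a replicate block the count was 3, all mast cell proteases (Mcpt1l1, Cma1 and Tpsab1). The labels do not say that the numbers pair libraries. Deviations of same-numbered libraries correlated at 0.0288, but 2 libraries per group are too few to settle whether they were paired. Leaving out each library gave 0 to 620, with 620 (251 higher, 369 lower) without uninjected 2, when uninjected 1 stood alone and was assumed to vary like the injected group, and 3 (Tpsab1, Cpa3 and Clmn) without uninjected 1.

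The difference between groups in the share of C1q-low macrophages among kept barcodes lay between 0.498 (thinned) and 3.90 points (without uninjected 2) in all alternatives that kept this denominator, and the share among macrophages differed by 0.316. The count of genes whose response differed from that of C1q-expressing macrophages was 9 with no filter, 0 after thinning (987 genes tested, 35 at an unadjusted p under 0.05) and 2 to 38 without each library. Over 134 named genes and 2316 alternative values, 152 changed sign, in 58 genes, and 56 passed the threshold, 31 of them without uninjected 2. The 2 libraries per group, the 53 members of uninjected 1 and the 7 to 42 C1q-expressing barcodes per library limit precision.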

Other observations

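Clmn (ENSRNOG00000011044), an actin-binding membrane protein, had 122 UMIs in 74 of 279 members of uninjected 2. It had 1 UMI in uninjected 1, 0 in injected 1 and 1 in injected 2. C1q-expressing macrophages had 1, 10, 0 and 1 UMIs in the same order, and 7 of 21 of those of uninjected 2 carried it. The gene passed edgeR's test only in the alternative without uninjected 1, where uninjected 2 stood alone.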
